A study of Oryza longistaminata with 15 samples.

Results

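Of 57194 rice probe sets on the array, 17 gave a signal over 100 on all 6 internode arrays of *O. longistaminata* and under 50 on all 9 arrays of the tips and the young leaf, with a ratio of the mean in rhizome internodes to the mean in shoot internodes between 0.5 and 2. These 17 probe sets, high in both internodes and low elsewhere, were chosen by those signals, so their levels are given as a description and carry no test. The 2 plain thresholds alone left 20 probe sets, and the bound on the ratio removed 3 of them.

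Wild-type *O. longistaminata* plants at the active tillering stage were profiled on 15 Affymetrix rice arrays, with 1 array for each sample. The 5 tissues, with 3 biological replicates each, were rhizome internodes (RI), shoot internodes (SI), rhizome tips (RT, the distal 1 cm of young rhizomes), shoot tips (ST, the distal 5 mm of tillers without leaves) and young leaves (YL). Labelling started from 5 µg of total RNA. The records speak of individual plants and the study of material kept as a single plant, so the spread between replicates may not be that between independent genotypes. The probes were designed on cultivated rice, *O. sativa*, and a transcript of *O. longistaminata* that differs under the probes can give a low signal.

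*O. longistaminata* is a perennial wild rice that spreads by rhizomes, which are stems that grow horizontally underground. A grass stem is built of nodes and internodes. The tip holds the apical meristem and the youngest leaves, whereas an internode consists of elongating or mature stem tissue with vascular bundles, supporting fibres and storage parenchyma. The internodes of rhizomes and of upright tillers share this anatomy, but those of tillers are green and grow in the light.

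A signal is the authors' linear intensity of a probe set after all arrays were scaled together, and it has no unit. The array carries 64 reporter controls, and the 95th percentile of their signals, 49.6, served as detection cutoff, so a signal under 50 is close to or under background. Array medians were 21.9 to 23.6, with 17943 to 18834 rice probe sets above the cutoff. Marker lists were set against the tissue labels. They were matched on gene descriptions in the study's tables, which hold only genes chosen on these arrays. The lists are thus no independent check of the labels. The 45 photosynthesis probe sets summed to signals of 7691 to 16941 in RI, 73484 to 103976 in SI, 16840 to 18766 in RT, 3186 to 3722 in ST and 156593 to 193174 in YL, and none was at 0. The arrays labelled RT thus exceeded those labelled ST in these green-tissue markers. The tip ratios tabulated by the study also run opposite to the labels for every probe set that could be compared. RT and ST are named here by their labels, and the values given for them may be exchanged. The 2 probe sets for DNA replication summed to 29 to 140 in the internodes, 436 to 965 in the tips and 20 to 27 in YL. The 5 KNOX and YABBY probe sets, listed for meristem and young organs, had their largest summed signal in YL. They summed to 921 to 1466 in the internodes, 1641 to 2610 in the tips and 3509 to 4431 in YL. Bright probe sets weigh most in such a sum, and Os.5992.1.S1_at averaged 1608 in YL, 185 in RT and 239 in ST. The mean log2 signal of the 5 was instead highest in the tips, at 8.02 to 8.54. It was 6.96 to 7.89 in YL and 5.86 to 7.04 in the internodes. Against the tips, 2 of these 5 were called higher in the internodes and 3 lower. Root markers were searched only among the probe sets described in the study's tables, and none was found there. Within SI, replicate 1 stood apart: over the 6957 probe sets above 100 on all 15 arrays, its correlation with the YL arrays was 0.792 to 0.815, against 0.571 to 0.669 for the 5 other internode arrays. It also had the highest photosynthesis sum of the internodes. Results on the 17 probe sets that rest on SI replicate 1 are therefore given with and without it, and the part of leaf-type RNA in them was not tested. In tissue samples, fewer cells of a type and less RNA per cell cannot be told apart.

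Probe sets high in both internodes and nowhere else were few. With the same 2 limits on signal, applied to the 3 arrays of every tissue, 20 probe sets were high in RI and SI, 2 in RI alone and none in SI alone. By comparison, 148 were high in both tips, 134 of them with a ratio of RT-labelled to ST-labelled means between 0.5 and 2, and 154 in YL alone. Most probe sets that were bright in the internodes were bright elsewhere too. Of the 9531 over 100 on all 6 internode arrays, 79 were under 50 on all 6 tip arrays and 195 under 50 on all 3 YL arrays. Wider patterns held 27 probe sets high in RI, SI and YL and 103 high in both internodes and both tips. Since both tips had to be low, an exchange of the tip labels would leave the 17 unchanged.

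**Figure D1:**
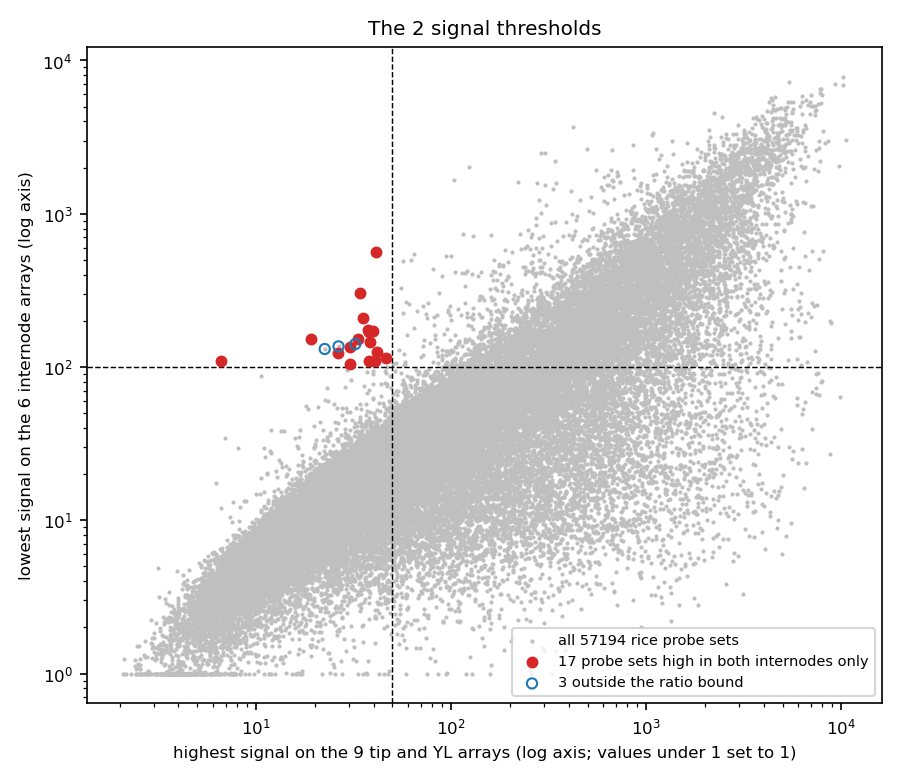
Lowest signal on the 6 internode arrays (vertical, log axis) against the highest signal on the 9 tip and YL arrays (horizontal, log axis) for each of 57194 rice probe sets, with dashed lines at 100 and 50. The 17 members (red) and the 3 probe sets outside the ratio bound (open blue) sit in the upper left corner, and Os.10596.1.S1_at lies farthest to the left, with a highest other signal of 6.6.

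The 17 probe sets had mean internode signals from 213 to 727, with a median of 295, which placed them between the 83.9 and 93.0 percentile of rice probe sets on the internode arrays. On the other 9 arrays their highest signals lay between 6.6 and 46.2, all under the detection cutoff. Because the tips and YL were not above background, a fold change is only a bound, taken against the cutoff. The lowest internode signal was at least 2.1-fold to at least 11.4-fold higher, with a median bound of 2.93-fold. For the 6 internode arrays together, the geometric mean of the internodes was at least 4.10-fold higher for Os.23225.1.A1_at and at least 13.3-fold higher for Os.6048.1.A1_at, with a median bound of 5.31-fold. In the limma fit over all probe sets, 17 of 17 were called higher in the internodes than in the tips, against 15.6% of the 21303 probe sets tested, and 17 of 17 higher than in YL, against 18.0%. The rule fixed both counts, so nothing is read from them.

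Of the 17, 11 carried a gene symbol in the platform annotation, and these are locus numbers without a gene name. The other 6 had none, and none of the 17 is described in the study's own tables, so no role is given here for any of them. The predicted-gene part of the array (prefix OsAffx) contributed 3 of them. A further mark is the suffix x_at, borne by 4 and used for probe sets some of whose probes can bind other transcripts. OsAffx.13016.1.S1_at and OsAffx.13016.1.S1_x_at have the same target, which leaves 16 distinct targets.

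**Figure D2:**
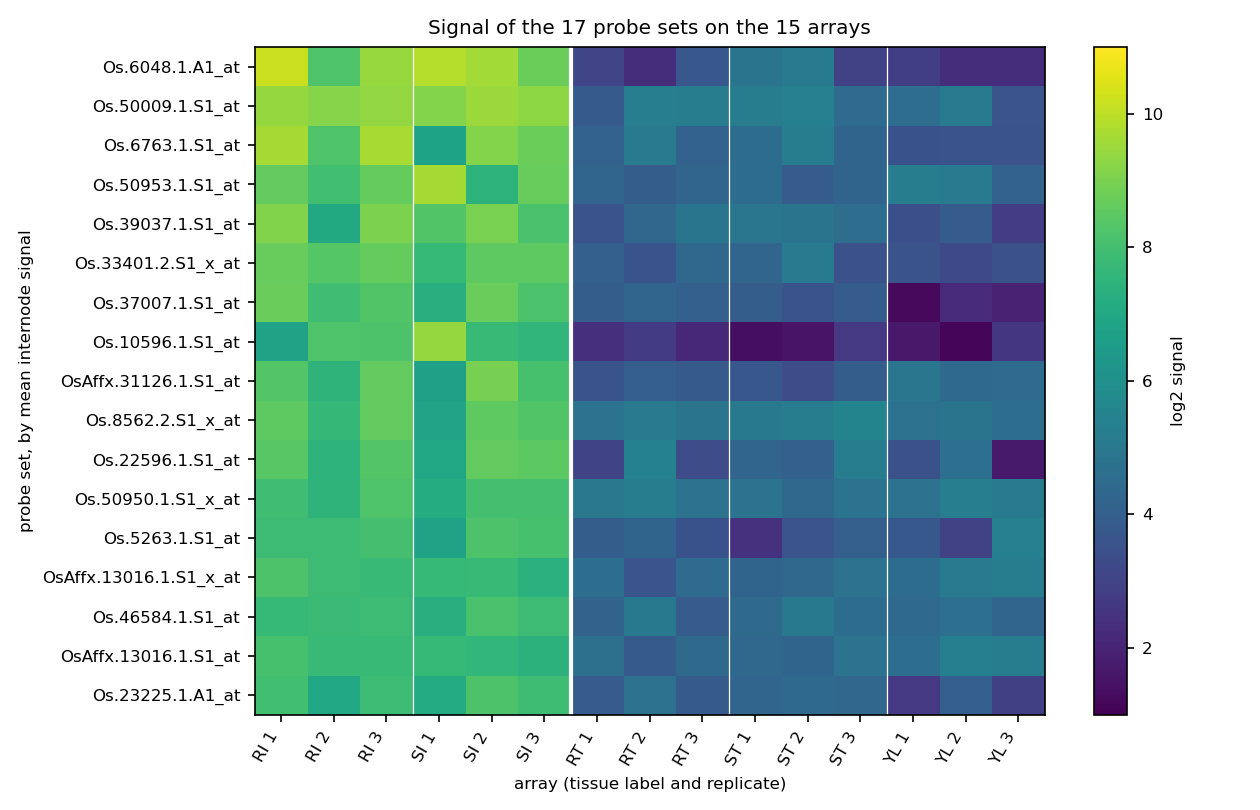
Log2 signal of the 17 probe sets (rows, by mean internode signal) on the 15 arrays (columns, tissue label and replicate), with internodes left of the thick white line. All internode signals are over 100 and all others under 50, as the rule requires, and the columns of SI 1 and RI 2 are darker than those of the other internode arrays in many rows.

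The brightest member was Os.6048.1.A1_at, which has no gene symbol. It gave 1167, 305 and 711 in RI and 959, 784 and 434 in SI, against 4.9 to 34.0 in the tips and 4.9 to 7.3 in YL. RI averaged 728 ± 431 and SI 726 ± 268 (SD, n = 3 each), so the tissue means nearly coincided while single arrays of 1 tissue differed by up to 3.83-fold. The next, Os.50009.1.S1_at (LOC4331856), was the steadiest of the 17. Its signals were 680, 588 and 673 in RI and 566, 722 and 631 in SI, against 14.4 to 41.2 in the tips and 12.4 to 33.5 in YL. RI averaged 647 ± 51.4 and SI 639.6 ± 78.1 (SD, n = 3 each), and the coefficient of variation over the 6 internode arrays was 9.2%, against a median of 34.2% over the 17. Even its lowest internode signal was at least 11.4-fold higher than elsewhere, the largest such bound of the 17.

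Os.10596.1.S1_at (LOC4333623) was listed far under the cutoff outside the internodes. It gave 109.6, 306 and 296 in RI and 688, 211 and 191 in SI, against 2.6 to 6.6 in the tips and 2.2 to 6.0 in YL. Its coefficient of variation over the internodes, 67.7%, was the highest of the 17, and the geometric mean of the internodes was at least 5.14-fold higher than elsewhere. Os.8562.2.S1_x_at (LOC4351297) came nearest to the upper limit outside the internodes. It gave 366, 203 and 385 in RI and 115, 369 and 314.5 in SI, against 28.2 to 46.2 in the tips and 24.2 to 28.5 in YL.

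On SI replicate 1, 10 of the 17 had their lowest internode signal. Besides Os.50009.1.S1_at and Os.8562.2.S1_x_at, these included the most unequal one, Os.6763.1.S1_at (LOC4325275), with 796, 300.5 and 837 in RI and 110.1, 563 and 437 in SI, against 17.5 to 37.9 in the tips and 11.5 to 12.0 in YL. Its highest internode signal was 7.60 times its lowest. OsAffx.31126.1.S1_at, without a symbol, gave 323, 179 and 386 in RI and 104, 500.5 and 276 in SI, against 10.3 to 16.0 in the tips and 21.2 to 30.3 in YL. In both, SI replicate 1 was the only internode array near the lower limit of 100. Os.22596.1.S1_at (LOC4338515) gave 338, 175 and 319.5 in RI and 125, 393 and 359 in SI. Os.37007.1.S1_at (LOC4324601) gave 421, 243 and 313 in RI and 152.5, 422 and 285 in SI. For the first of these, signals elsewhere lay between 3.3 and 41.8, and for the second between 2.4 and 19.0, with YL of 2.4 to 4.7 under the tips of 12.1 to 19.0.

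Among the same 10, Os.5263.1.S1_at (LOC4349744) gave 232, 233 and 264 in RI and 109.0, 298 and 269.6 in SI. Its signals elsewhere were 5.4 to 18.8 in the tips and 7.8 to 40.9 in YL, where replicate 3 alone was over 13.5. Os.46584.1.S1_at, without a symbol, gave 210.2, 224 and 232 in RI and 153, 280.5 and 234 in SI, against at most 33.3 in the tips and 19.3 to 25.2 in YL. For both, the 5 internode arrays other than SI replicate 1 lay close together. Os.50950.1.S1_x_at (LOC4330257) gave 244, 182 and 301 in RI and 145, 268 and 265 in SI, against 21.0 to 38.1 in the tips and 26.7 to 38.5 in YL. Os.33401.2.S1_x_at, without a symbol, gave 405, 325 and 395 in RI and 209, 371 and 370.1 in SI, against 11.3 to 35.3 in the tips and 9.2 to 11.8 in YL. In these 2, RI replicate 2 was the lowest of the RI arrays, as SI replicate 1 was of the SI arrays.

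On RI replicate 2, 3 probe sets were lowest. One was Os.6048.1.A1_at. The second, Os.39037.1.S1_at (LOC4334147), gave 551, 136 and 517.5 in RI and 308.5, 511 and 281 in SI, against 11.8 to 30.2 in the tips and 7.0 to 15.1 in YL. Os.23225.1.A1_at (LOC4346910), the dimmest of the 17, gave 248, 123 and 232 in RI and 143, 294 and 237 in SI, against 14.4 to 26.3 in the tips and 6.3 to 15.9 in YL. Its lowest pair of arrays was again RI replicate 2 and SI replicate 1.

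Only Os.50953.1.S1_at (LOC4342055) and Os.10596.1.S1_at were highest on SI replicate 1. Os.50953.1.S1_at gave 389, 248 and 395 in RI and 808, 175 and 411 in SI, against 15.1 to 23.5 in the tips and 17.6 to 37.7 in YL. In both probe sets the signal of SI replicate 1 was well over that of each other internode array, and in both RI averaged below SI.

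The pair OsAffx.13016.1.S1_x_at and OsAffx.13016.1.S1_at, which share a target, were among the most even. The x_at probe set gave 298, 232 and 220.5 in RI and 210.4, 216 and 168 in SI, against 12.5 to 27.2 in the tips and 22.9 to 38.0 in YL. The other gave 270.3, 216 and 218 in RI and 208, 199 and 172 in SI, against 14.3 to 28.4 in the tips and 24.8 to 39.9 in YL. In both, every RI array was above every SI array.

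**Figure D3:**
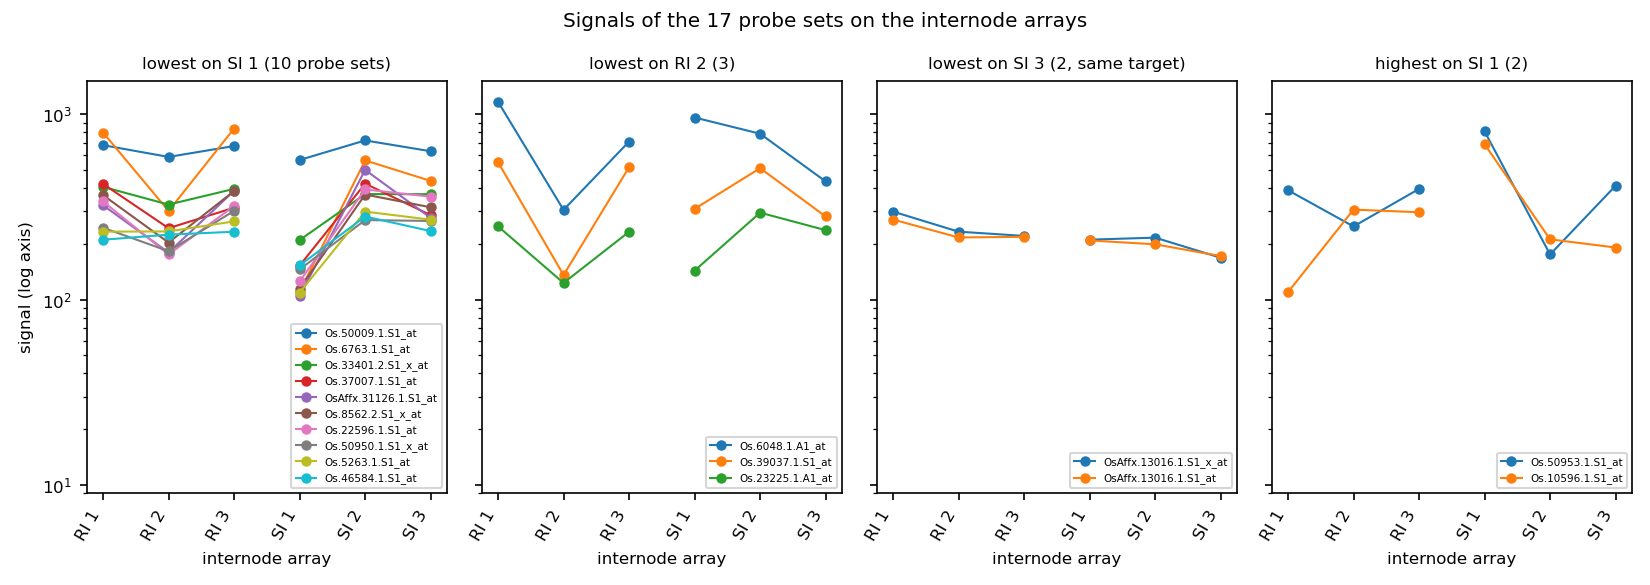
Signal (log axis) of the 17 probe sets on the 6 internode arrays, RI left and SI right in each panel, in 4 panels by the array on which each was lowest or highest. Lines only join the points of 1 probe set. On SI 1, 10 probe sets drop, 3 drop on RI 2, the pair with a common target stays between 168 and 298, and 2 peak on SI 1 at 808 and 688.

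The order of the internode arrays within the 17 differed from that in bright probe sets at large, and this is a description without a test. SI replicate 1 was the lowest internode array in 10 of 17 (58.8%), against 20.1% of the 9531 probe sets over 100 on all 6 internode arrays. It was the highest in 2 of 17 (11.8%), against 30.0%. The 9531 carry no limit on the tips or YL, whereas the 17 had to be under 50 in YL. Of the internode arrays, SI replicate 1 was the most like YL, so the rule itself can favour a low signal there. This difference is therefore not read as a trait of the 17, and the part of the rule in it was not tested. The median signal of the 17 was 338, 232 and 319.5 on the RI arrays and 153, 369 and 281 on the SI arrays. Over the 9531 probe sets the corresponding medians were 458, 421 and 487 in RI and 485, 497 and 501 in SI, so SI replicate 1 was not dim in general. SI replicate 2 was the highest array in 7 of 17 (41.2%), against 17.0%. RI replicate 2 was the lowest in 3 of 17 (17.6%) and the highest in 0, against 28.2% and 14.4%. The rule demanded a signal over 100 on SI replicate 1 as well, and without that array 45 probe sets met it, all 17 among them. The 28 gained had signals from 5.6 to 141 on SI replicate 1, with a median of 36.0, and 19 of them were under 50 there.

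RI and SI were compared within the 17 by description only, since the rule bounded their ratio. RI averaged above SI in 12 and below SI in 5, with ratios of means from 0.65 for Os.10596.1.S1_at to 1.74 for Os.6763.1.S1_at and a median of 1.07. The next lowest ratios were 0.74 for Os.50953.1.S1_at and 0.89 for Os.23225.1.A1_at, and the next highest 1.26 and 1.22 for the OsAffx.13016.1 pair. Without SI replicate 1, an alternative chosen after seeing the data, RI averaged above SI in 8 of the 17, with ratios from 0.74 to 1.30 and a median of 0.96. The ranges of the 3 RI and the 3 SI arrays failed to overlap in 2 of 17, both from the OsAffx.13016.1 target, against 15% of all probe sets tested. In the fit across all probe sets 0 of 17 were called different between RI and SI, against 1.90% of those tested (0.338% higher and 1.56% lower in RI). The bound on the ratio fixes that count in large part. For Os.6763.1.S1_at, RI averaged 644 ± 298.5 and SI 370 ± 234 (SD, n = 3 each), and for Os.10596.1.S1_at, RI averaged 237 ± 110.4 and SI 364 ± 281.5 (SD, n = 3 each), so the arrays of the 2 tissues overlapped even where the means were most unequal.

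Many of the 17 varied together across the internode arrays. Over the 6 arrays, 56 of their 136 pairs (41.2%) had a Pearson correlation of log2 signals over 0.7, against 13.9% of all pairs of the 9531 bright probe sets. The median r was 0.46, against 0.03. Without SI replicate 1, 53 pairs (39.0%) were over 0.7, against 18.5%, and the median r was 0.49, against 0.04. These correlations rest on 6 or 5 arrays that all pairs share, and are a description without a test. The 17 also had to be low in the tips and YL and within the ratio bound, which the 9531 did not. The 2 shares are thus not like for like, and their difference is not read as a trait of the 17. The 10 probe sets lowest on SI replicate 1 gave 45 of the 56 pairs. They correlated with each other at 0.74 to 0.98, but at −0.12 to 0.97 once that array was left out. Os.8562.2.S1_x_at and OsAffx.31126.1.S1_at had 10 partners over 0.7 both with and without SI replicate 1. Os.5263.1.S1_at and Os.46584.1.S1_at went the other way and had 9 partners each with all arrays, but 2 and 1 without SI replicate 1. Conversely, Os.6048.1.A1_at had 1 partner with all arrays and 8 without SI replicate 1, and Os.39037.1.S1_at had 3 and 10. Os.50953.1.S1_at and Os.10596.1.S1_at had no partner over 0.7 either way, with median correlations to the others of −0.54 and −0.69 over all 6 arrays and 0.09 and −0.44 without SI replicate 1. The OsAffx.13016.1 pair correlated over 0.7 only with each other, at 0.98.

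**Figure D4:**
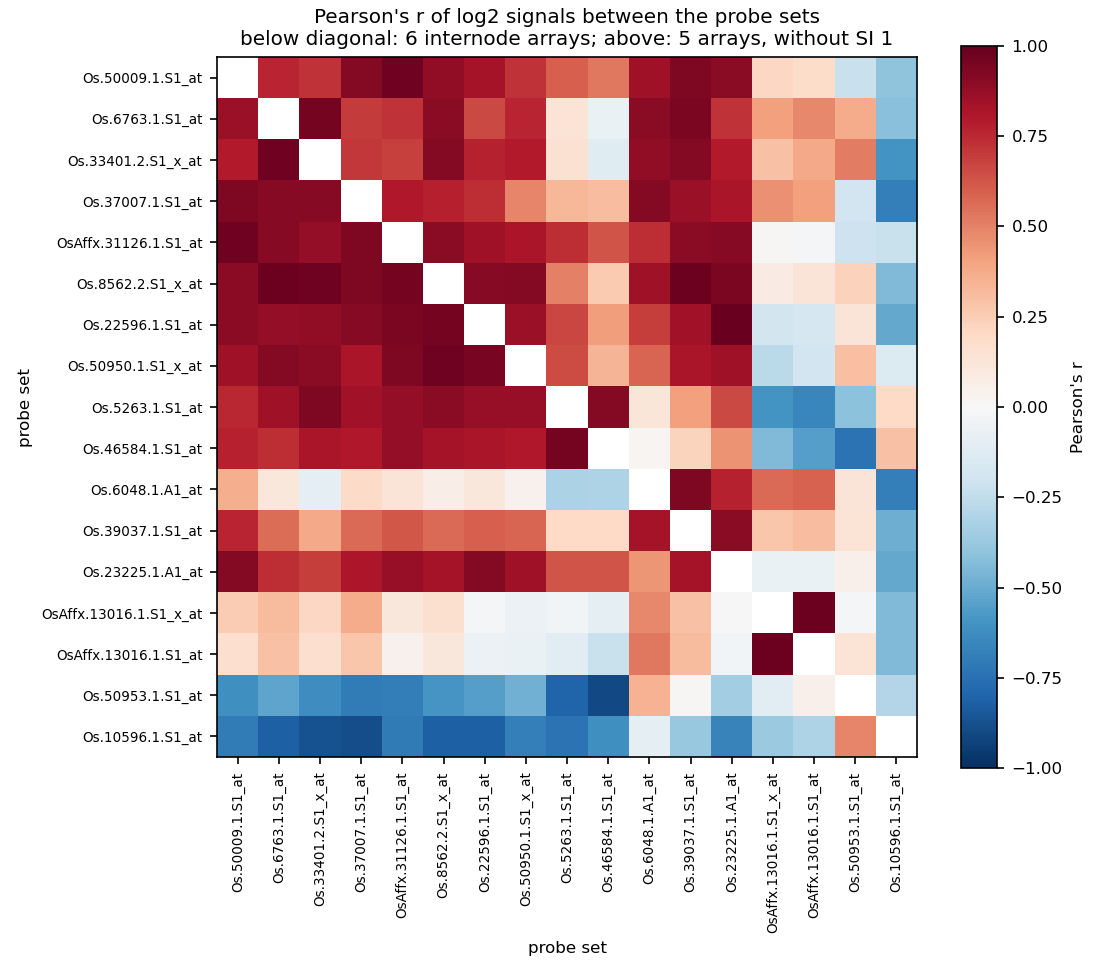
Pearson's r of log2 signals for the 136 pairs of the 17 probe sets, over the 6 internode arrays below the diagonal and over 5 arrays without SI 1 above it. The block of 10 probe sets at the upper left has r of 0.74 to 0.98 below the diagonal, and the last 2 rows, Os.50953.1.S1_at and Os.10596.1.S1_at, are mostly blue.

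Other probe sets on the array that carry the same gene symbol, or the same number of the sequence cluster in their name, were found for 11 of the 17. Os.6763.1.S1_x_at, Os.22596.1.S1_s_at, Os.5263.1.S1_x_at and Os.46584.1.S1_x_at differ from their member's name only in the suffix and are not taken as independent readings. Those of the same cluster with another symbol may read another gene. There were 14 such probe sets outside the 17. In 6 of them every internode signal was above every other signal, and 3 were under the cutoff on all internode arrays. For LOC4325275 all 3 other probe sets followed Os.6763.1.S1_at. Os.6763.1.S1_x_at gave 95.5 to 728 in the internodes, against 11.3 to 29.3 in the tips and 9.3 to 23.4 in YL. Os.36709.1.S1_x_at gave 55.7 to 423 and Os.36709.1.S1_at 38.9 to 390.0 in the internodes, and both were at or under 18.0 elsewhere. Their correlations with the member over the 6 internode arrays were 0.97 to 1.00, and each was under 100 on SI replicate 1, outside the limit for the 17. Os.36709.1.S1_at averaged 247 in RI and 114 in SI, and Os.36709.1.S1_x_at 334 and 148, so both also exceeded the ratio bound of 2.

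For LOC4338515, Os.22596.1.S1_s_at gave 251 to 674 in the internodes, against 27.2 to 71.2 in the tips and 25.5 to 71.9 in YL, and it followed the member with an r of 0.99. For LOC4349744, Os.5263.1.S1_x_at gave 153 to 424 in the internodes, against 12.0 to 27.6 in the tips and 31.0 to 118 in YL, with an r of 0.99. Its YL signals on replicates 2 and 3 were above the limit of 50. Os.5263.2.S1_x_at, of the same cluster but with the symbol LOC4351459, gave 130 to 591 in the internodes, against 13.7 to 49.6 in the tips and 47.7 to 162 in YL. Beside Os.8562.2.S1_x_at, 2 probe sets of its cluster carried another symbol, LOC4349583. Of these, Os.8562.1.S1_x_at gave 43.5 to 117 in the internodes, against 11.4 to 21.3 on the other arrays, while Os.8562.1.S1_a_at gave 143 to 327, against 38.9 to 68.9 in the tips and 108 to 160 in YL.

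In other cases the other probe set differed from the member. For LOC4334147, Os.16627.1.S1_at gave 235 to 1567 in the internodes, against 247 to 690 in the tips and 11.2 to 206 in YL, and its r with Os.39037.1.S1_at was −0.28. The low tip signal of LOC4334147 was thus seen with 1 of its 2 probe sets. For LOC4333623, Os.51541.1.S1_at stayed at 7.2 to 10.1 in the internodes, 5.6 to 8.9 in the tips and 8.2 to 11.4 in YL, under the cutoff throughout, so the internode signal of this gene also rested on 1 probe set. Os.46584.1.S1_x_at shares its cluster with Os.46584.1.S1_at but was bright in YL, with 234 to 464 in the internodes, 16.2 to 66.4 in the tips and 285 to 333 in YL. Os.37007.2.S1_at gave 28.1 to 54.5 in the internodes, against 30.3 to 38.6 in the tips and 9.7 to 17.2 in YL. Os.33401.1.S1_at and OsAffx.13016.2.S1_at stayed at or under 15.3 in the internodes. The cause of these differences was not tested.

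**Figure D5:**
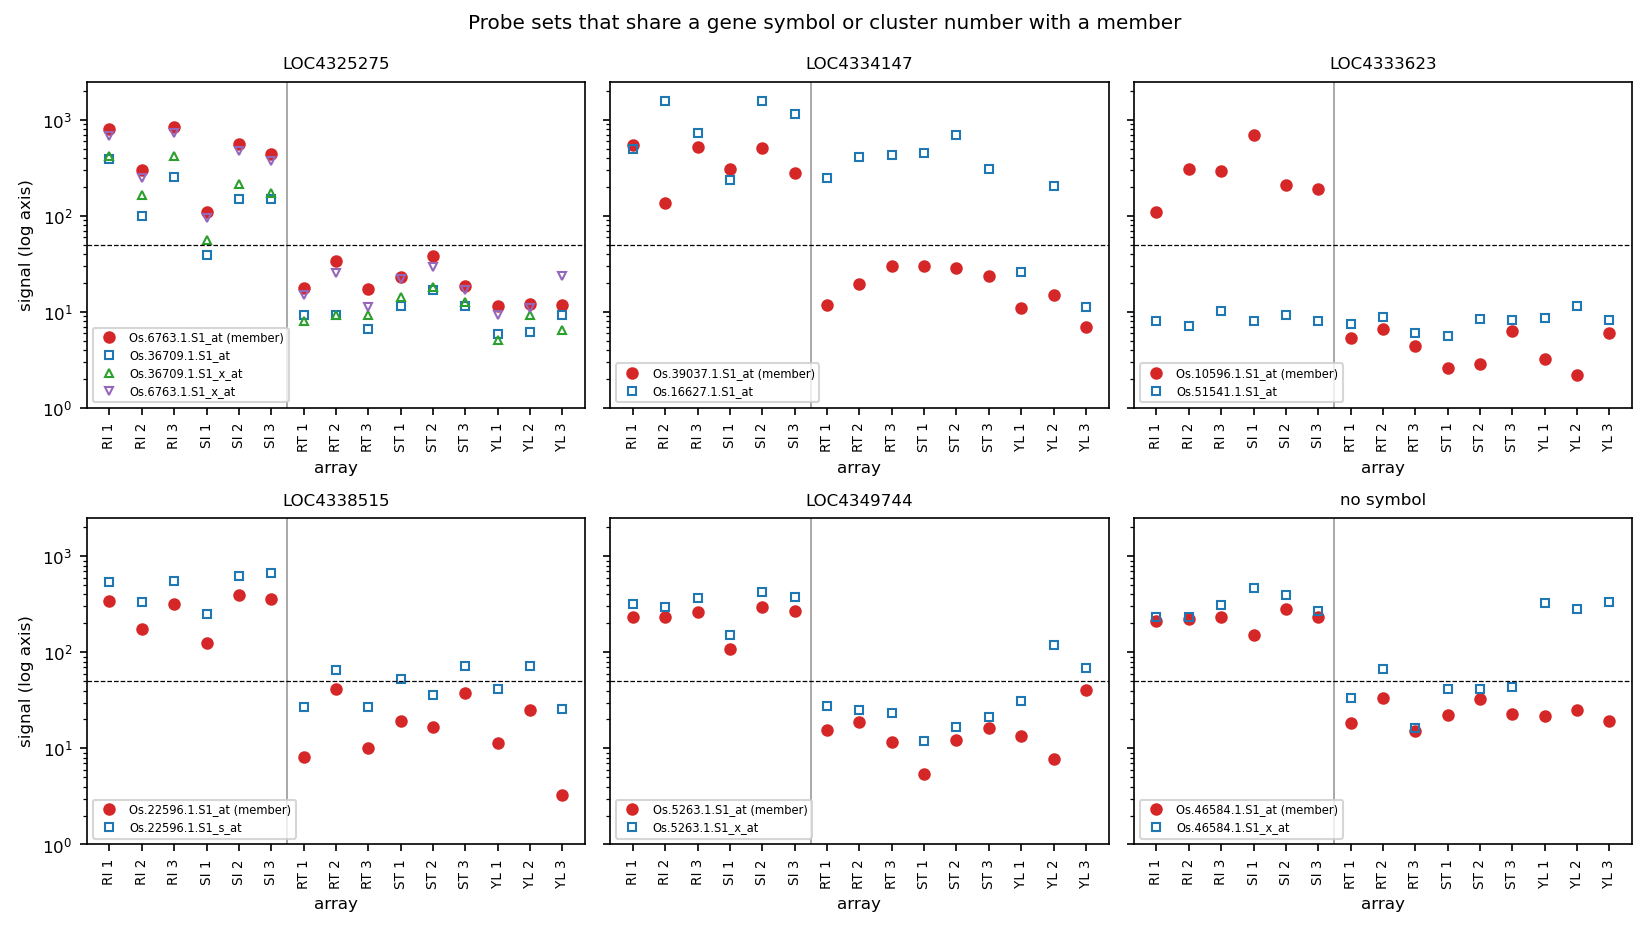
Signals (log axis; values under 1 set to 1) on the 15 arrays for 6 members (filled red) and the other probe sets with the same gene symbol, or, in the last panel, the same cluster number (open). The dashed line marks 50 and the grey line divides internodes (left) from tips and YL (right). The readings run together on the internode arrays for LOC4325275, LOC4338515 and LOC4349744. For the last 2 of these, the other probe set exceeds 50 on some tip or YL arrays. Readings differ for LOC4334147, LOC4333623 and the probe sets of cluster Os.46584.

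The members nearest to the lower limit of 100 were OsAffx.31126.1.S1_at (104), Os.5263.1.S1_at (109.0) and Os.10596.1.S1_at (109.6). Just outside stood Os.50300.1.S1_at with a lowest internode signal of 99.8, Os.6763.1.S1_x_at with 95.5 and Os.51114.1.S1_x_at with 94.3. Nearest to the upper limit of 50 were Os.8562.2.S1_x_at (46.2), Os.22596.1.S1_at (41.8) and Os.50009.1.S1_at (41.2). Just outside were Os.42812.1.A1_at with a highest other signal of 52.2, Os.16139.1.S1_at with 53.9 and OsAffx.27176.1.S1_s_at with 55.5. The bound on the ratio left out Os.54620.1.A1_at, with a ratio of RI to SI of 2.40, Os.55238.1.S1_at with 0.45 and OsAffx.24129.1.S1_at with 0.44.

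The gene lists were matched on the gene descriptions in the study's tables, which hold only genes chosen on these arrays. Since none of the 17 is described there, none could fall in a list. List counts can follow in part from that choice of genes, and describe the listed probe sets only. Over all probe sets tested (limma, all 15 arrays), 15.6% were called higher in the internodes than in the tips and 15.8% lower. Against YL, 18.0% were higher and 19.9% lower. Of 5 starch synthesis probe sets, 3 were called higher than in the tips and 0 lower, with a median log2 difference of 1.64 against 0.01 over all tested. Os.11244.1.S1_x_at and Os.13844.1.S1_at, which are among these 3, belong to the same locus. Against YL, 3 were higher and 2 lower. Of 10 peroxidase probe sets, 4 were higher than in the tips and 0 lower, and 6 were higher and 3 lower than in YL. Of 6 for sucrose metabolism and sugar transport, 0 were called against the tips and 6 were lower than in YL. Of 35 probe sets for cytochrome P450, glycosyltransferase and glutathione transferase, 17 were higher and 3 lower than in the tips. Against YL, 4 were higher and 27 lower. Of 45 photosynthesis probe sets, 39 were higher and 1 lower than in the tips, and 0 higher and 44 lower than in YL. These counts average 2 unlike internodes, since 33 of the 45 were called lower in RI than in SI and 0 higher. The median log2 difference of RI to SI was −3.0. Their summed signals in RI, 7691 to 16941, were mostly under the 16840 to 18766 in RT and above the 3186 to 3722 in ST. Some lists went both ways against the tips, with 5 higher and 5 lower of 15 defence probe sets. The search word thionin also matched methionine, so the 5 higher include Os.8003.1.S1_at, described as a peptide methionine sulfoxide reductase. The defence counts were not corrected for such matches. Hormone probe sets had 6 and 6 of 20, protein kinases 12 and 9 of 61, and transcription factors 9 and 7 of 60. Against YL, 7 protein kinases were higher and 45 lower, and 6 transcription factors higher and 39 lower.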

How the data were processed

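RNA of 15 samples was hybridised to 1-colour Affymetrix arrays. The authors made raw data from the images with GCOS 1.4 and normalised the arrays by global scaling in dChip. The deposited intensity values are linear, 1 per probe set and array, without detection calls. Raw images were not used here, and the number of arrays limits the precision. Of 57381 probe sets, 187 controls were left out.

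The 17 probe sets and the gene lists were chosen with earlier results of these data known. The 17 were found by their signals, as stated above. They were then named in full, with companions of the same symbol or cluster number and up to 3 probe sets on each side of each threshold. For tests over all probe sets, log2 intensities were used, with 1 as the floor. Probe sets above the cutoff of 49.6 on all 3 arrays of a tissue were tested (21303), with 5 tissue means in limma 3.58.1 (R 4.3.3) and Benjamini-Hochberg adjustment. A call required an adjusted p under 0.05 and over 2-fold. limma replaced the SAM program of the study's methods, which was not available for use here. It was tested on simulated data.

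Platform annotation gave 22436 rice probe sets 1 symbol, 95 several and 34663 none. Gene lists had been planned for reference descriptions. They were instead matched on the 2633 probe sets described in the study's tables. Promoter motifs were not analysed here. Alternatives were other signal limits, normalizations, filters, floors, array subsets and a replicate block. Figures used matplotlib 3.10.9 in Python 3.11.15.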

Additional observations from a re-analysis of the deposited data

How the results depend on the processing

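The number of probe sets high in both internodes only was 17. It was 7 with limits of 150 and 40, and 39 with limits of 80 and 60, with all 17 among those 39. It was 20 without the ratio bound, 21 after quantile normalization and 18 after median scaling. Leaving out 1 array at a time gave 17 to 45. The count was 45 without SI replicate 1 and 28 without YL replicate 2. The 11 probe sets gained without YL replicate 2 had signals of 52.2 to 709 on that array.

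Between internodes and tips, 3325 probe sets were called higher and 3367 lower, and without a fold minimum 5281 and 5828. Between RI and SI, 72 were called higher and 333 lower. With only the arrays compared these counts were 19 and 105. Leaving out 1 array at a time gave 37 to 192 higher and 209 to 682 lower. The extremes were 192 without RI replicate 2, 37 and 209 without RI replicate 3, and 166 and 682 without SI replicate 1. Replicate numbers were not taken as pairing. Deviations of same-numbered RI and SI arrays correlated at 0.621, 0.441 and 0.082. RI 1, SI 1 and SI 2 correlated best with their own number, and RI 2, RI 3 and SI 3 did not. Of 30 same-numbered pairs over all tissues, 6 were over 0.1 and 7 under −0.1. With the replicate number as a block, 64 were higher and 286 lower between RI and SI, 3352 and 3389 between internodes and tips, and 3870 and 4239 between internodes and YL. Of the remaining counts that answer a comparison, 115 values stayed within 1.5 times. For list counts and single signals, 1315 values stayed within 1.5 times or 1 SD and 106 did not. Without SI replicate 1 the RI to SI ratio was above 1 in 8 of the 17 members in place of 12, and its median was 0.96 in place of 1.07. The 2 readings without SI replicate 1 of the pairs and of the RI to SI ratios were chosen after seeing the data. Signals near 50 are near background, which limits how low the tips and YL can be said to be.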

Other observations

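With limits of 80 and 60 in place of 100 and 50, 22 further probe sets joined the 17, and none of the 39 is described in the study's tables. The brightest of those that missed a limit narrowly was Os.7559.1.S1_at, which has no gene symbol and was named after its values were seen. Its internode signals averaged 1744, with a lowest of 492, and its highest other signal was 56.4, on YL replicate 2. OsAffx.27176.1.S1_s_at averaged 1272 in the internodes, with a lowest of 325, and its highest other signal was 55.5, also on YL replicate 2. Os.50883.1.S1_at (LOC4336908), also named after its values were seen, had a lowest internode signal of 88.0 and a highest other signal of 10.5.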
